A study of Mus musculus with 17 samples.

Results

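The genes that flank Ppara on mouse chromosome 15 were compared between the lungs of wildtype (WT), PPARα KO and hPPARα KI mice. They are the genes of the deposited count table on chromosome 15 whose start lies from 80700000 to 90800000 (mm10) and whose counts sum to at least 100 over the 17 libraries, leaving out Ppara itself, Srebf2, Cpt1b, Cyp2d22 and Ndufa6. This rule gave 122 genes out of 31245 in the table. Of the 176 rows in the interval, 49 were under a total of 100 and 5 were the genes left out by name. In all, 76 of the 122 genes start before Ppara and 46 after it, and 103 are protein-coding. The rule used position and total count only, so no genotype difference chose a gene.

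Lungs came from 17 mice that drank water with 6.2 µg/mL perfluorooctanoic acid (PFOA, labelled Hi-PFOA) or the sucrose vehicle for 14 weeks. All were given the same custom diet from 6 weeks of age, and the age at which the treated water began is not stated apart from this. WT mice gave 2 vehicle and 3 PFOA libraries, KO mice 3 and 3, and KI mice 3 and 3. The KO mice lack functional mouse PPARα and the KI mice express human PPARα. Both came from crosses of mice with null and human PPARα alleles, whereas the WT mice were bought from a supplier, so genotype and colony of origin cannot be told apart in any comparison with WT. The paper names an Sv strain from Jackson for the WT mice. The strain background of the KO and KI mice is not given in the sources used here, so a strain difference from WT cannot be judged. All 6 KO mice were female, against 2 of 5 WT and 4 of 6 KI mice. PFOA is a fluorinated fatty acid analog that activates PPARα, a nuclear receptor that switches on genes of fatty acid oxidation.

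A gene is altered in mice by changing its sequence in embryonic stem cells, and the altered copy is then passed on by breeding. The DNA on both sides travels with it, because recombination seldom separates close neighbours. Where the stem cells and the control mice differ in strain or substrain, neighbouring genes can therefore carry other variants than in the controls. Such passenger differences are well known from targeted mouse lines and are a reason to look at the neighbours of a targeted gene apart from the rest of the genome. The interval around Ppara is gene-dense. It holds transcription regulators such as Ep300 (a histone acetyltransferase) and Tef (a bZIP factor of the circadian output), kinases such as Pim3 and Mapk11, and mitochondrial and lipid genes such as Tspo and Cerk.

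Library totals ran from 4116116 to 9237385 counts with a median of 7524817. In CPM, the unit used below, counts are divided by the TMM-scaled library total, and 3 counts in a library were worth 0.319 to 0.691 CPM. Libraries WT vehicle 122 and KO vehicle 137 stood apart, with 65.3% and 61.3% of their counts in protein-coding genes against 74.4% to 80.4% in the other 15. Markers of the lung were present in every library, with 2393 to 8100 CPM summed over 4 genes of alveolar type 2 cells, and Alb, a liver gene, was at 0 to 3.59 CPM. Markers of cardiac muscle summed to 187 to 6391 CPM over 3 genes.

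The targeted gene was looked at first. Ppara (ENSMUSG00000022383, + strand, chr15:85734983-85802819) had 6.13 and 7.21 CPM in the WT vehicle libraries and 5.07, 4.39 and 6.94 CPM in the WT PFOA libraries. In the 6 libraries labelled KO it ran from 8.82 to 11.7 CPM with a median of 10.2, and in the KI libraries from 9.08 to 20.4 with a median of 15.1. The reads were therefore not fewer in the libraries labelled KO. They were more numerous in every KO and KI library than in any WT library. The log2 fold change of KO against WT was 0.78 (standard error (SE) 0.19, adjusted p = 0.036 by the quasi-likelihood test of edgeR, adjusted after Benjamini and Hochberg over 26946 genes), and that of KI against WT was 1.29 (SE 0.19, adjusted p = 0.000577). The counts are per gene, so they do not show which exons gave the reads. In what follows, KO stands for the libraries labelled KO, whose label the Ppara count does not check.

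**Figure D1:**
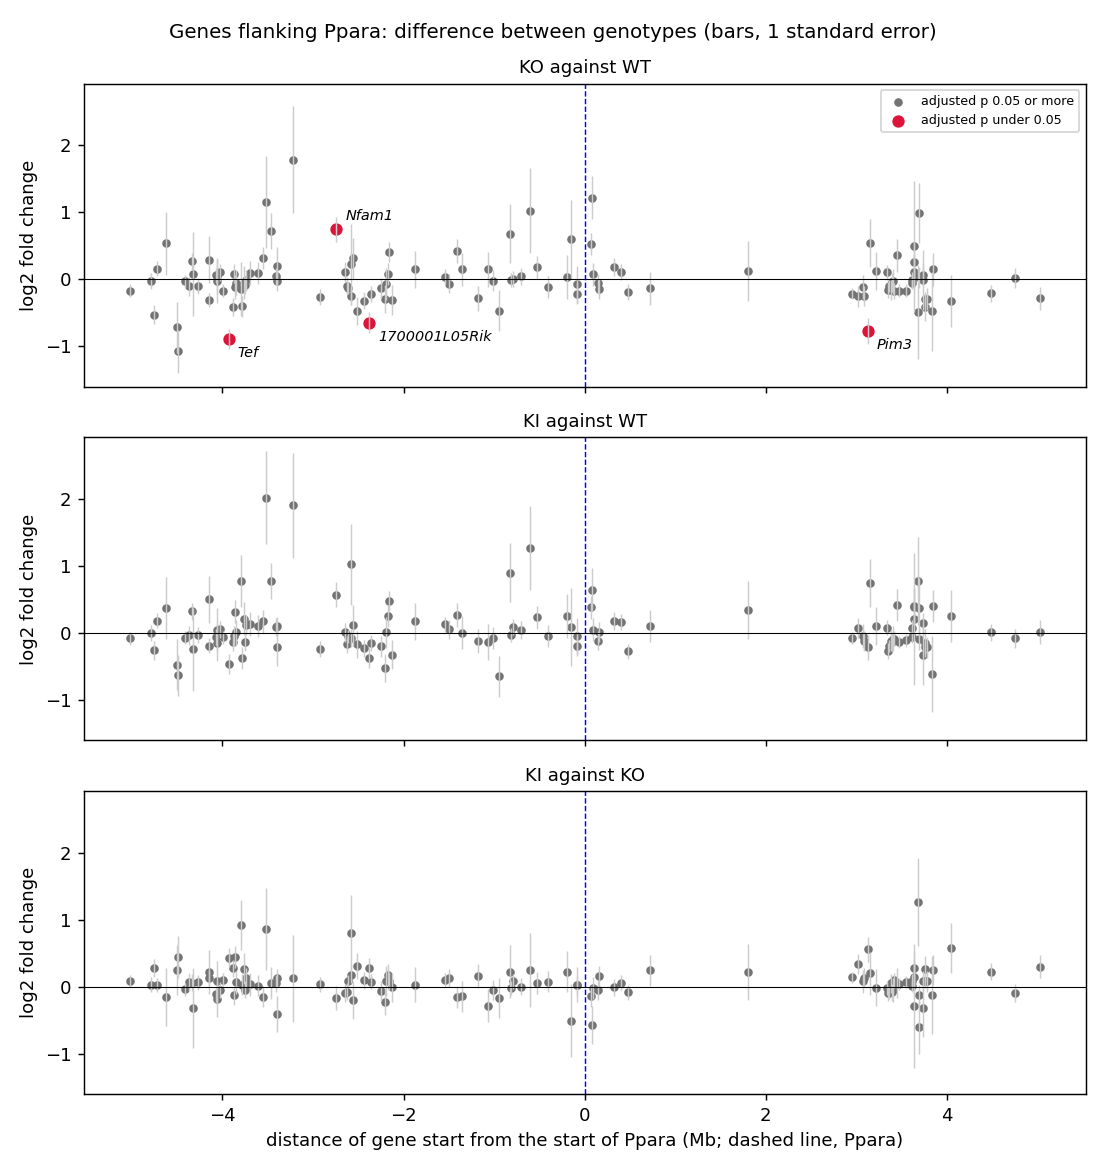
Difference between genotypes for each of the 122 flanking genes, plotted as the log2 fold change against the distance of the gene's start from the start of Ppara in Mb, for KO against WT, KI against WT and KI against KO. Points are fitted values over 17 libraries with bars of 1 standard error. The 4 genes past an adjusted p of 0.05 are in red in the KO panel, all more than 2 Mb from Ppara, and the other panels hold none.

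Between lungs labelled KO and WT, 4 of the 122 flanking genes passed an adjusted p of 0.05 with edgeR, which is 3.28% of them, beside 1.92% of all 26946 genes tested (517 genes) and 2.54% of the 19885 genes that reach a total of 100. Tef, Pim3 and the long noncoding RNA 1700001L05Rik were lower in KO (0.939% of all genes were) and Nfam1 was higher (0.98% were). At the study's threshold, an adjusted p under 0.2 with a fold over 2, 2 of the 122 were called (8430426J06Rik and Pkdrej), beside 2.36% of all genes. At an unadjusted p under 0.05 there were 21 genes (17.2%), beside 12.9% of all genes. The median log2 fold change of the 122 genes was -0.03, beside -0.02 over all genes with a total of at least 100, and the median size of the change without its sign was 0.170 against 0.174. Single genes ran from -1.08 for 8430426J06Rik to 1.78 for Tdg-ps, neither of which passed an adjusted p of 0.05 in this fit. 8430426J06Rik did with the protein-coding share as a term (adjusted p = 0.0432) and without KO PFOA 154 (adjusted p = 0.0226). The 95% interval of the difference lay within 2-fold in either direction for 98 of the 122 genes and within 1.5-fold for 65. Animals were separate mice, and a lower level in whole lung cannot be told apart between fewer cells of a type and less RNA per cell.

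The genes past the threshold are taken in the order of their adjusted p. Tef (ENSMUSG00000022389, + strand, chr15:81802421-81826863, 3.93 Mb before Ppara) encodes thyrotroph embryonic factor, a PAR bZIP transcription factor whose level cycles with the day in many tissues. It had 360 and 416 CPM in WT vehicle and 425, 426 and 355 CPM in WT PFOA libraries. The KO libraries ran from 164 to 270 CPM with a median of 223, so each of the 6 lay below each of the 5 WT libraries. The KI libraries ran from 220 to 404 CPM with a median of 270, between both and reaching into the WT range with 1 library, KI PFOA 57. Means were 397 ± 35.6 CPM in WT (SD, n = 5), 217 ± 42.0 in KO (n = 6) and 289 ± 63.3 in KI (n = 6). The KO difference from WT was -0.90 on the log2 scale (SE 0.15, 95% interval -1.21 to -0.59, adjusted p = 0.0018 by edgeR). The KI difference was -0.47 (SE 0.15) with an adjusted p of 0.181 by edgeR, and KI against KO gave 0.43 (SE 0.14, adjusted p = 0.9997). Per exonic kb, Tef stood at 37.5 CPM, the third highest of the 122 genes after Rpl31-ps8 at 181 and Cyb5r3 at 40.6, where the median gene had 4.47. Tef overlaps Gm17597 on the other strand, so part of its count may be reads of that gene.

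1700001L05Rik (ENSMUSG00000075511, lincRNA, − strand, chr15:83353847-83367282) lies 2.38 Mb before Ppara and has no role that is known for sure. WT vehicle libraries had 10.9 and 8.19 CPM and WT PFOA libraries 12.9, 10.5 and 13.4. KO libraries ran from 5.53 to 8.30 CPM with a median of 7.18, and KI libraries from 7.13 to 10.2 with a median of 8.15. KO and WT touched at their edges, since the highest KO library, KO PFOA 154, was above the lowest WT library, WT vehicle 122. The KO difference from WT was -0.65 (SE 0.16, adjusted p = 0.030 by edgeR) and the KI difference -0.38 (SE 0.15, adjusted p = 0.393).

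Pim3 (ENSMUSG00000035828, + strand, chr15:88862186-88865726) encodes a serine/threonine kinase of the PIM family that favours survival and protein synthesis, and it lies 3.13 Mb after Ppara. WT vehicle libraries had 54.1 and 67.5 CPM and WT PFOA libraries 84.1, 53.9 and 72.5. KO libraries ran from 31.7 to 51.8 CPM with a median of 35.7, all below the lowest WT library. KI libraries were spread from 34.5 to 77.2 CPM with a median of 54.3 and overlapped both. The KO difference from WT was -0.78 (SE 0.19, adjusted p = 0.038 by edgeR) and the KI difference -0.22 (SE 0.19, adjusted p = 0.847).

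Nfam1 (ENSMUSG00000058099, − strand, chr15:82992973-83033306), 2.74 Mb before Ppara, encodes an ITAM-bearing receptor of immune cells that signals to NFAT. WT vehicle libraries had 12.8 and 13.4 CPM and WT PFOA libraries 23.6, 17.5 and 19.5. KO libraries ran from 15.9 to 39.6 CPM with a median of 28.5 and KI libraries from 12.3 to 30.4 with a median of 25.7, so both overlapped WT. The KO difference from WT was 0.74 (SE 0.19, adjusted p = 0.048 by edgeR) and the KI difference 0.57 (SE 0.19, adjusted p = 0.228). Its difference between PFOA and vehicle libraries was 0.58 (SE 0.15, adjusted p = 0.394). Markers of alveolar macrophages (Marco and Chil3) summed to 56.3 to 211 CPM in WT libraries with a median of 160. They summed to 20.5 to 178 CPM in KO with a median of 109 and 37.4 to 158 in KI with a median of 81.5. Markers of the T cell lineage (Cd3e and Rag1) summed to 1.97 to 12.7 CPM in WT with a median of 6.87, 4.36 to 11.5 in KO with a median of 7.34 and 4.89 to 10.2 in KI with a median of 6.27. Among WT libraries the T cell markers were lowest in both vehicle libraries, as Nfam1 was, at 1.97 and 4.80 CPM. The macrophage markers were at 56.3 CPM in WT vehicle 122 but at 170 in WT vehicle 107, above the WT median. None of these markers passed in KO or KI against WT by edgeR, and their part in the Nfam1 difference was not tested.

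**Figure D2:**
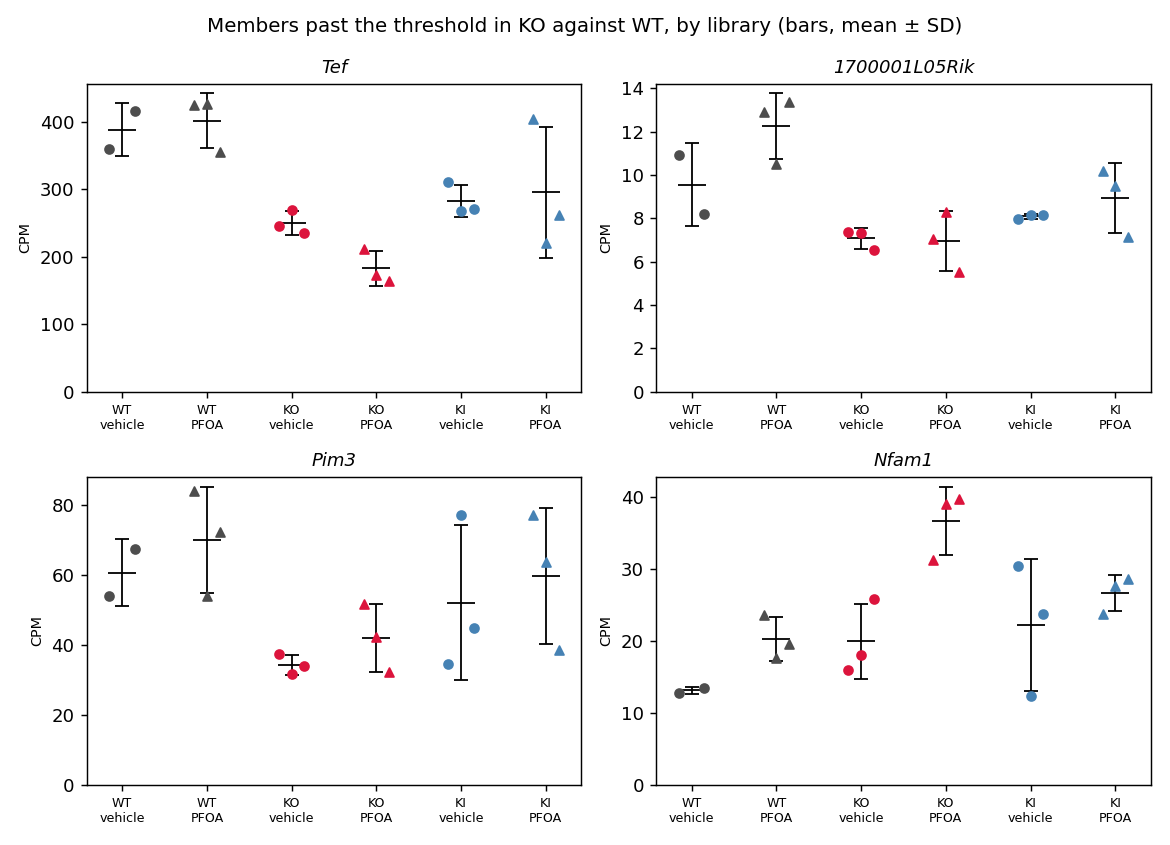
CPM of Tef, 1700001L05Rik, Pim3 and Nfam1 in each library, by genotype and treatment (circles vehicle, triangles PFOA; horizontal bars mean, error bars ± SD of each of the 6 groups). All 6 KO libraries lie below all 5 WT libraries for Tef (164 to 270 against 355 to 426 CPM) and Pim3 (31.7 to 51.8 against 53.9 to 84.1 CPM), and the genotypes overlap for the other genes.

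How firmly these 4 calls stood differed. Over 31 other settings (14 alternatives and each of the 17 libraries left out in turn), Tef stayed past the threshold in 30, with a log2 fold change from -0.96 to -0.74. Its only loss came with a numeric field of the column names as a further term (-0.82, adjusted p = 0.066 by edgeR). The labels do not give the meaning of this field. It had 1 value in all 3 KO PFOA libraries that no KO vehicle library had. The field was also uneven between KO and WT. WT PFOA 65 and both WT vehicle libraries shared a value that no KO library had. KO vehicle 145 and 149 shared a value that no WT library had. Genotype and field were thus partly confounded, so the fit with this term cannot fully separate them. 1700001L05Rik stayed past the threshold in 20 settings, Pim3 in 17 and Nfam1 in 15. With single libraries left out, the edgeR adjusted p reached 0.0935 for 1700001L05Rik (lost without KO PFOA 155 or 52, KO vehicle 149, WT PFOA 50 or 65, or WT vehicle 107) and 0.112 for Pim3 (lost without KO PFOA 154 or 155, KO vehicle 145 or 149, WT PFOA 50 or 65, or either WT vehicle library). Nfam1 reached 0.127 and stayed past the threshold only without KI PFOA 57, KI vehicle 102 or 116, or KO vehicle 137 or 145. With sex as a term, Tef gave -0.74 (adjusted p = 0.027 by edgeR), beside -0.90 without it. 1700001L05Rik gave -0.66 (adjusted p = 0.109 by edgeR), Pim3 -0.82 (0.111) and Nfam1 0.79 (0.127), beside -0.65, -0.78 and 0.74 without it. All 6 KO mice were female, so this fit cannot fully separate sex and genotype. With the numeric field as a term, 1700001L05Rik gave -0.53 (adjusted p = 0.334 by edgeR), Pim3 -0.41 (0.486) and Nfam1 0.45 (0.528), each smaller than without it. Within the female mice, Tef gave -0.87 (adjusted p = 0.034). The other 3 genes did not pass there, with -0.75 for 1700001L05Rik, -0.83 for Pim3 and 0.65 for Nfam1.

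Without a model, the libraries can be compared directly. For 5 of the 122 genes (4.1%, beside 2.76% of all genes tested) the KO and WT libraries did not overlap, all with KO lower. They were Tef, Pim3, Ep300, Brd1 (a reader of acetylated histones) and Pmm1 (a phosphomannomutase). Ep300 had 161 to 253 CPM in KO and 275 to 292 CPM in WT libraries, a difference of -0.32 (SE 0.11, adjusted p = 0.141 by edgeR). Brd1 had 127 to 148 against 156 to 168 CPM, a difference of -0.22 (SE 0.08, adjusted p = 0.229). Ep300, Brd1 and Pmm1 did not pass with edgeR in the reported fit. DESeq2 called Ep300 (-0.31, adjusted p = 0.00678) and Brd1 (-0.20, adjusted p = 0.0136), and edgeR called Ep300 with the protein-coding share of the library as a term (adjusted p = 0.0389).

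Between KI and WT lungs, 0 of the 122 genes passed with edgeR, beside 0.983% of all genes tested (265 genes, 0.59% higher and 0.393% lower in KI) and 1.27% of those with a total of at least 100. The study's threshold gave 0 as well, beside 1.37% of all genes. DESeq2 gave 0 as well, and 16 genes (13.1%) were under an unadjusted p of 0.05, beside 9.65% of all genes. The smallest adjusted p was 0.167, for Ttll12 (a tubulin tyrosine ligase-like protein), whose level was 7.31 ± 1.71 CPM in WT (SD, n = 5) and 10.3 ± 1.41 in KI libraries (n = 6). The median log2 fold change was 0.0049 and the 95% interval lay within 2-fold for 99 of the 122 genes. Libraries did not overlap for 2 genes (1.64%, beside 2.0% of all genes), Ep300 at 221 to 273 CPM in KI and Tubgcp6 (a part of the γ-tubulin ring complex) at 43.9 to 45.5 CPM in KI against 45.8 to 57.0 in WT. The call count rested on single libraries. Without WT vehicle 122, Rabl2 (a small GTPase of the ciliary base) was past the threshold (0.83, adjusted p = 0.025 by edgeR), and without KI PFOA 57, Tef was (-0.63, adjusted p = 0.0135). Rabl2 was at 25.4 CPM in WT vehicle 122, 6.72 to 8.74 in the other WT libraries and 12.1 to 17.7 in KI libraries. Markers of ciliated cells (Foxj1 and Ccdc39) moved with it, at 161 CPM in WT vehicle 122, 45.0 to 59.1 in the other WT libraries and 64.5 to 125 in KI libraries, so that without that library they too lie below every KI library, and their part in the Rabl2 difference was not tested.

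Between KI and KO lungs, which came from the same crosses, 0 of the 122 genes passed with edgeR or DESeq2, beside 0.00742% of all genes tested (2 genes, both higher in KI and 0.0101% of those with a total of at least 100). At an unadjusted p under 0.05 there were 6 genes (4.92%), beside 4.78% of all genes, and the smallest adjusted p was 0.9997. Among them were Tef, Pim3, Csdc2 (an RNA-binding cold shock protein), Zbed4 (a zinc finger protein) and Tob2 (an antiproliferative regulator). The median size of the change was 0.120, the same as over all genes with a total of at least 100, and the 95% interval lay within 2-fold for 103 genes and within 1.5-fold for 79. KO and KI were each compared with the same 5 WT libraries, so their differences from WT share these libraries and the likeness of both is no separate support.

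Near Ppara itself, the 3 genes before it and the 3 after it gave no call at an adjusted p under 0.05 in the reported edgeR fit of any of the 3 comparisons, whereas DESeq2 and the study's threshold both called Pkdrej in KO against WT. Before it lie AU022754 (antisense to Wnt7b), Gm49539 (a lincRNA) and Lncppara (a noncoding transcript), and after it Cdpf1 (a cysteine-rich protein of little known role), Pkdrej (a polycystin-related sperm receptor) and Ttc38 (a tetratricopeptide protein). Pkdrej (− strand, chr15:85814670-85821734) had 1.73 and 1.31 CPM in WT vehicle and 4.05, 1.90 and 1.80 CPM in WT PFOA libraries. KO libraries ran from 3.32 to 8.29 CPM with a median of 4.40 and KI libraries from 2.23 to 4.64 with a median of 3.0. Only WT PFOA 50 of the WT libraries reached into the KO range. The difference of KO from WT was 1.21 (SE 0.32), just short of the threshold (adjusted p = 0.054 by edgeR), and without WT PFOA 50 it was 1.55 (adjusted p = 0.016). DESeq2 gave 1.24 with an adjusted p of 0.018. In all, 9 of the 31 other settings put Pkdrej past the threshold.

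Cdpf1 (− strand, chr15:85806972-85811697) begins the stretch after Ppara. It had 6.13 to 8.35 CPM in the 5 WT libraries with a median of 6.34, 8.04 to 12.2 in KO with a median of 9.77 and 7.20 to 13.1 in KI with a median of 8.36. The KO difference was 0.52 (SE 0.17, adjusted p = 0.140 by edgeR) and the KI difference 0.38 (SE 0.17, adjusted p = 0.472). On the other side, Lncppara (+ strand, chr15:85653616-85707524) had 8.61 to 12.3 CPM in WT, 7.57 to 10.6 in KO and 8.15 to 11.9 in KI libraries, with a KO difference of -0.22 (95% interval -0.54 to 0.10, adjusted p = 0.605 by edgeR). Ttc38 differed by 0.07 (95% interval -0.28 to 0.43, adjusted p = 0.918 by edgeR), and its sign turned in females and with the numeric field of the column names as a term. Gm49539 gave -0.08 (95% interval -0.65 to 0.49), and its sign turned in females, with sex as a term and without KO PFOA 52 or WT PFOA 56. AU022754 was near the floor in most libraries, at 0.385 to 2.24 CPM apart from 5.30 CPM in KO vehicle 137, and its counts may hold reads of Wnt7b on the other strand since the use of strand in counting is not given in the sources used here.

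**Figure D3:**
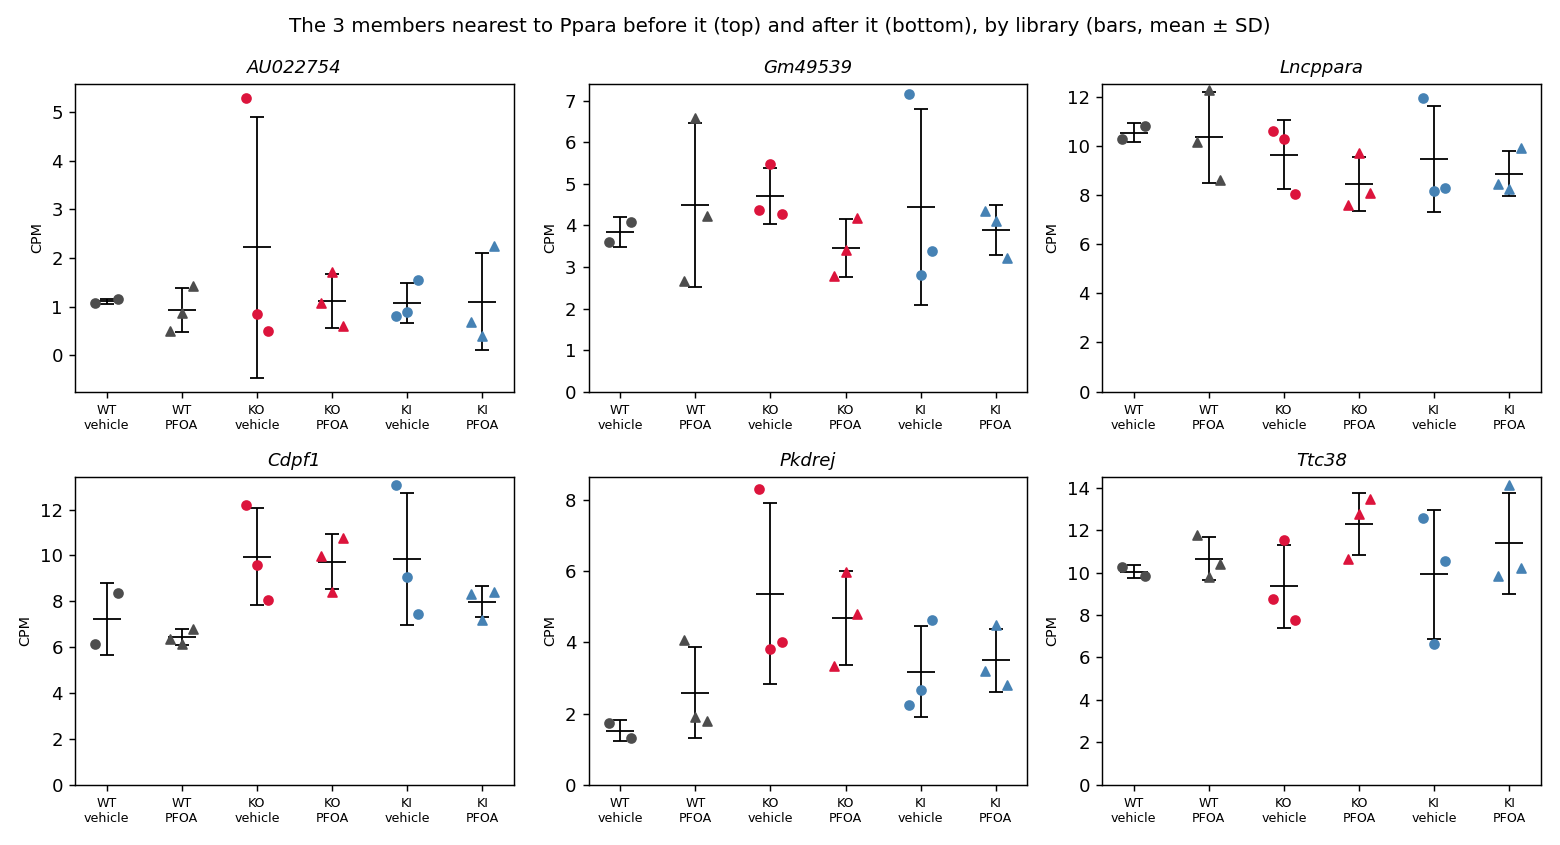
CPM of the 3 genes nearest to Ppara on each side (top row before it, bottom row after it) in each library, by genotype and treatment (circles vehicle, triangles PFOA; horizontal bars mean, error bars ± SD of each group). Pkdrej was at 1.31 to 4.05 CPM in WT and 3.32 to 8.29 CPM in KO libraries, Ttc38 and Lncppara overlapped between all genotypes, and AU022754 has 1 high library at 5.30 CPM.

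Along the interval, the 4 calls of the reported edgeR fit in KO against WT lay more than 2 Mb from Ppara. None of the 5 genes under 0.5 Mb before it, the 7 from 0.5 to 1 Mb and the 8 from 1 to 2 Mb passed with edgeR, nor did any of the 8, 1 and 1 genes at the same distances after it. From 2 to 3.5 Mb before Ppara 2 of 23 genes did, beyond 3.5 Mb before it 1 of 33, from 2 to 3.5 Mb after it 1 of 16, and beyond 3.5 Mb after it 0 of 20. Pkdrej, which DESeq2 and 9 of the 31 settings in all put past the threshold, is 0.0797 Mb after the start of Ppara. At an unadjusted p under 0.05, 2 of the 8 genes within 0.5 Mb after Ppara (Cdpf1 and Pkdrej) and 0 of the 5 within 0.5 Mb before it were counted, beside 12.9% of all genes. The median size of the KO difference was 0.125 for the 5 genes within 0.5 Mb before Ppara and 0.165 for the 8 within 0.5 Mb after it, beside 0.174 over all genes with a total of at least 100. On the rest of chromosome 15, 20 of 845 genes passed (2.37%). Other chromosomes ran from 0.713% on X to 3.56% on chromosome 1. Only chromosome 1 was above the 3.28% of the flanking genes, and chromosome 7 came next at 2.55%. These sets are unlike, since the chromosome shares count all genes with a total of at least 20. The flanking genes all reach a total of 100, and 2.54% of all such genes passed. In KI against WT the rest of chromosome 15 had 9 calls (1.07%).

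**Figure D4:**
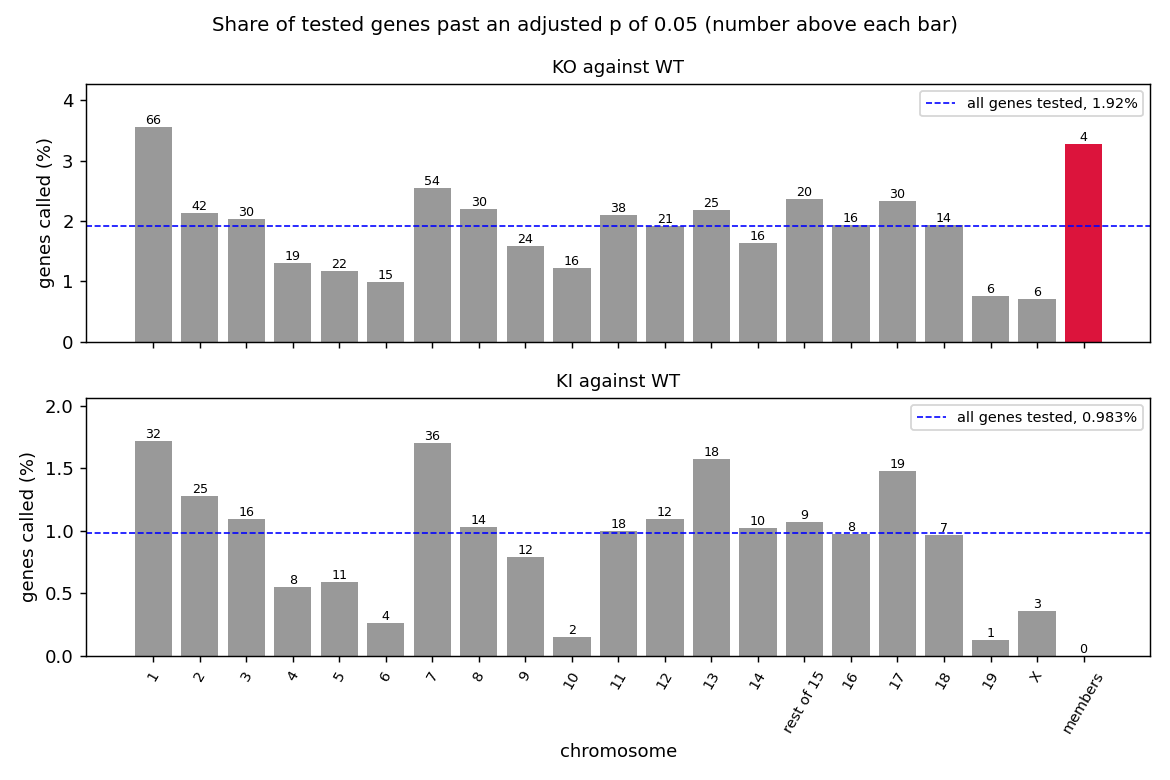
Share of tested genes past an adjusted p of 0.05 in KO against WT (top) and KI against WT (bottom), in percent, for each chromosome, the rest of chromosome 15 and the 122 flanking genes (red); numbers above bars are the genes called and the dashed line is the share over all genes tested. In KO against WT the flanking genes stand at 3.28%, with only chromosome 1 above them at 3.56%. In KI against WT they stand at 0.0%, below every chromosome shown, from 0.126% on chromosome 19 to 1.72% on chromosome 1.

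By role, 92 of the 122 genes fell in 8 lists and 30 in none. Over all genes tested, 1.92% passed in KO against WT with edgeR, 12.9% were under an unadjusted p of 0.05, and the median was -0.02 for those with a total of at least 100. Among the 13 genes of transcription and chromatin, 1 (Tef) passed as lower in KO against WT, 5 were under an unadjusted p of 0.05, 11 had a negative and 2 a positive value, and the median was -0.22. DESeq2 called Ep300 and Brd1 of this list too. The same list had a median of -0.08 in KI against WT with 10 negative values and no call. Among the 15 genes of signalling and adhesion, Pim3 passed as lower, with 2 genes under an unadjusted p of 0.05, 9 negative values and a median of -0.03. The list holds the p38 kinases Mapk11 and Mapk12, the ligand Wnt7b, the cadherin Celsr1 and the semaphorin receptor Plxnb2, and no other gene of it passed.

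In the 15 genes of mitochondria and lipid metabolism, among them Smdt1 (a part of the mitochondrial calcium uniporter), Tspo (an outer membrane protein that binds cholesterol), Cerk (ceramide kinase) and Chkb (choline kinase), 0 passed with edgeR or DESeq2 and 0 were under an unadjusted p of 0.05, with a median of -0.01 and a range of -0.26 to 0.49. The 14 genes of cytoskeleton and trafficking had 0 calls with edgeR, 5 genes at an unadjusted p under 0.05 and a median of -0.14. DESeq2 called 1 of them, Sgsm3 (-0.52, adjusted p = 0.0376), as did edgeR with the protein-coding share as a term (adjusted p = 0.0154). The 7 genes of glycans and the lysosome, such as Arsa (a lysosomal sulfatase), had 0 calls with edgeR or DESeq2, 2 at an unadjusted p under 0.05 and a median of -0.22. The 17 genes of RNA, DNA repair and protein handling, such as Xrcc6 (a subunit of Ku) and Rbx1 (the RING part of cullin ligases), had 0 calls with edgeR or DESeq2, 1 at an unadjusted p under 0.05 and values from -0.16 to 0.52.

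Of the 8 genes of cilium and germ line, 0 passed with edgeR and 1 with DESeq2 (Pkdrej), 1 was under an unadjusted p of 0.05 (the same gene) and the median was 0.12. Of the 3 immune genes, Nfam1 passed as higher. Tnfrsf13c, the BAFF receptor of B cells, was at 0 to 1.52 CPM in WT, 0.230 to 4.49 in KO and 0.891 to 8.12 in KI libraries, with differences of 1.15 (adjusted p = 0.524 by edgeR) and 2.02 (adjusted p = 0.246). Its highest KI library was KI vehicle 102 and its lowest KI vehicle 116, and the part of B cell content in these values was not tested. The third immune gene, Bik, a BH3-only protein, did not pass.

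The exposure gave no call among the flanking genes. Between the 9 PFOA and the 8 vehicle libraries, 0 of the 122 genes passed with edgeR or DESeq2, beside 0.00371% of all genes tested (1 gene). The smallest adjusted p was that of Nfam1, given above. The interaction test asked whether the genotype difference depended on treatment. It passed for 0 of the 122 genes with edgeR or DESeq2 for KO, and for 0 for KI, beside 0.0% of all genes in both.

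Within the vehicle libraries 0 of the 122 genes passed in KO against WT by edgeR (0.26% of all genes) and 1 by DESeq2. Within the PFOA libraries 1 passed (0.453% of all genes), which was Tef. The Tef difference was -0.63 on vehicle (SE 0.21, adjusted p = 0.244 by edgeR) and -1.14 on PFOA (SE 0.19, adjusted p = 0.006), and the test of the difference between both did not pass (-0.51, adjusted p = 0.687). In KI against WT 0 passed within vehicle (0.238% of all genes) and 0 within PFOA (0.26%) by edgeR or DESeq2. Vehicle and PFOA libraries came from different mice, so both sets of differences can be set side by side. Across the 122 genes, which share libraries and depth, Spearman's rho between the vehicle and the PFOA differences was 0.36 in KO against WT, 0.53 in KI against WT and -0.08 in KI against KO. Over all genes with a total of at least 100 it was 0.21, 0.21 and -0.01. Without WT vehicle 122 and KO vehicle 137 the values of the flanking genes were 0.33, 0.54 and 0.12, and those of all such genes 0.28, 0.31 and 0.12.

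**Figure D5:**
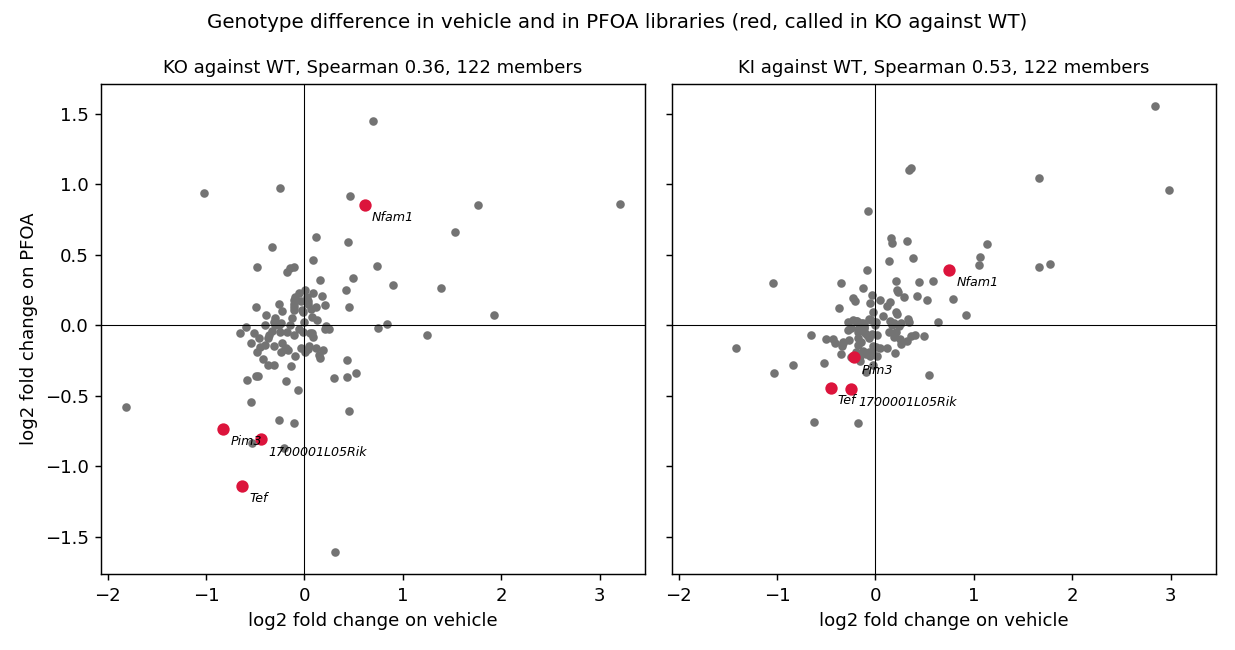
Log2 fold change of each of the 122 flanking genes in the vehicle libraries (horizontal axis) and in the PFOA libraries (vertical axis), for KO against WT (left) and KI against WT (right); red points are the 4 genes past the threshold in KO against WT over both treatments. Tef, Pim3 and 1700001L05Rik are below 0 and Nfam1 above 0 on both axes in both panels, and Spearman's rho over the points is 0.36 and 0.53. The 4 genes were chosen by their KO difference over both treatments, so their shared sign in the left panel is no separate support. The right panel uses the same WT libraries.

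Promoter sequences of RefSeq (GRCm38.p6, 250 bases before to 50 after each start) were at hand for 89 of the 122 genes, with 114 promoters. The palindromic E-box CACGTG, which bHLH factors such as CLOCK and BMAL1 bind, was in 14 of these promoters (12.3%) and in 7.15% of 32851 promoters of all genes. The half-site AGGTCA of nuclear receptors was in 14.9% against 16.3%, and the DR1 element, its direct repeat with a single base between, was in 0 of 114 against 0.0396% of all promoters. The cyclic AMP response element TGACGTCA was in 4 (3.51%) against 1.79%. Both strands were searched, and no motif of these letters contains another except that the direct repeat holds the half-site. The promoters of Tef and 1700001L05Rik are shown because these are the called genes that have the E-box, with its letters in capitals. Both Tef windows, chr15:81802423-81802722 and chr15:81811164-81811463 on the + strand, hold it once, and the 1700001L05Rik window, chr15:83367248-83367547 on the − strand, holds it at 2 places.
Tef, first start: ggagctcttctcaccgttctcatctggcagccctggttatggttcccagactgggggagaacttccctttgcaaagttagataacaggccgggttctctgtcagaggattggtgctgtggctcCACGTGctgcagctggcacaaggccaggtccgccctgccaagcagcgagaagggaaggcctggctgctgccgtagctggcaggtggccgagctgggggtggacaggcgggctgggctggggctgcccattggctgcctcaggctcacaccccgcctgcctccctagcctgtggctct
Tef, second start: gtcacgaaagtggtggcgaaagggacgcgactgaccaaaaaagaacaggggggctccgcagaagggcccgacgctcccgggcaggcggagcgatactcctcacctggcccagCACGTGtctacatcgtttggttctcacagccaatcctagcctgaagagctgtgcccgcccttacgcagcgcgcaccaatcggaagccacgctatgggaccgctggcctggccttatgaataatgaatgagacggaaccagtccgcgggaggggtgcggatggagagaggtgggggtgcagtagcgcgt
1700001L05Rik: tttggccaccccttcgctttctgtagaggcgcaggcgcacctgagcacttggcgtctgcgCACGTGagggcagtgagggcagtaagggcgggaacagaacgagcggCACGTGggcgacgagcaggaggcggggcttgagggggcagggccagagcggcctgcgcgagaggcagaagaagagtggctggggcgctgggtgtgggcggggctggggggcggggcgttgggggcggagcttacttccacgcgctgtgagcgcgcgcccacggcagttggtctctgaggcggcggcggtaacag
The windows of Pim3 and Nfam1 have no E-box, and 1 window of each has the half-site AGGTCA. These matches are letters in a window and say nothing of binding.

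At the limits of the rule, the first gene inside the interval was Tnrc6b (a GW182 protein of microRNA silencing), with 270 to 291 CPM in WT and 206 to 275 in KO libraries, and the last was the ribosomal protein pseudogene Rpl31-ps8, with 73.9 ± 13.8 CPM in WT (SD, n = 5) and 59.5 ± 18.2 in KO libraries (n = 6). Its count is uncertain, since a pseudogene shares reads with its parent gene, Rpl31. The nearest genes outside were A430088P11Rik before, at 1.09 ± 0.727 CPM in WT libraries, and Tcea1-ps1 after, at 39.2 ± 4.12. Just inside the limit on total counts was Ribc2, a ciliary protein with 103 counts, and just outside Gtse1, a mitotic protein with 96.0.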

How the data were processed

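Lung RNA of 17 mice in 6 groups was sequenced. Per the labels and the study's methods, the authors made libraries with a stranded total RNA kit, trimmed bases under a quality of 20, aligned reads to mm10 with STAR 2.6 and quantified genes with an expectation-maximization model in Partek. The values the authors deposited are estimated counts of each gene, not normalized, and 29.9% of them are not whole. The annotation release and the use of strand are not given in the sources used here. Because fractional assignment splits reads between overlapping genes and near-identical copies, 48 of the flanking genes, which overlap a gene on the other strand, and the pseudogenes are less certain.

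Counts were rounded, and genes with a total of at least 20 were tested (26946). edgeR 4.0.16 in R 4.3.3 scaled libraries by TMM factors and fitted genotype and treatment as additive terms to all 17 libraries by quasi-likelihood. Interactions and within-treatment differences came from a fit with a coefficient per group. The Benjamini-Hochberg adjustment ran over the whole tested table, and an adjusted p under 0.05 was a call. Intervals of fold changes are 95% intervals from the fit. Sampling noise does not account for the spread between replicates (chi-square per degree of freedom of at least 5.75 for every replicate pair), so each library counts once. On simulated counts for 26122 genes in KO against WT, with 200 changed 4-fold, 171 were recovered with 7 other calls, and 0 genes were called when none was changed. The called flanking genes differ by less than 4-fold, so this does not show how often changes of their size would be found.

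Genes named are the called genes, the 3 nearest to Ppara on each side and those at the limits of the rule; other genes given with values were chosen after their values were seen, as was every gene named only for a library or setting. The members and the 8 role lists were chosen with earlier results of these data known. Gene positions are those of the table; 119 of the 122 names matched the GENCODE annotation of mm10, from which exonic lengths and overlaps came. Promoters are from RefSeq (GRCm38.p6). The alternatives were DESeq2 1.42.0, other scaling factors, filters and thresholds, further terms, subsets of mice and leaving out each library.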

Additional observations from a re-analysis of the deposited data

Results flagged for a closer look

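In groups of 5 or 6 libraries of a genotype, a library was looked at again when its gap to the nearest other library took up more of the group's range than Dixon's 95% critical value (0.710 for 5, 0.625 for 6). Chance gives such a library in about 1 group of 20. There were 66 checks, with the lowest and the highest library of a group apart, and 5 found one. These 5 are therefore not to be read as a share of 66 groups. For Nfam1, KI vehicle 116 was lowest at 12.3 CPM, where the other KI libraries had 23.7 to 30.4. For AU022754, KO vehicle 137, the library with the lowest depth and protein-coding share, was highest at 5.30 CPM against 0.502 to 1.70. KI vehicle 102 was highest for both Gm49539 (7.16 CPM against 2.80 to 4.34) and Cdpf1 (13.1 against 7.20 to 9.04). For Pkdrej, WT PFOA 50 was highest at 4.05 CPM against 1.31 to 1.90 in the other WT libraries.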

How the results depend on the processing

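The count of genes past the threshold in KO against WT, 4 in the reported fit, was 8 with DESeq2, 8 with the protein-coding share of the library as a term, 2 with upper-quartile factors, 1 with sex as a term, 1 in females only and 0 with the numeric field of the column names as a term. It was 2 at an adjusted p under 0.2 with a fold over 2, 0 at an adjusted p under 0.05 with a fold over 2, and 1 among the 39 genes within 2.5 Mb of Ppara. Leaving out single libraries gave 1 to 5, with 1 without KO PFOA 155, KO vehicle 149 or WT PFOA 65 and 2 without WT PFOA 50, WT vehicle 107 or WT vehicle 122. The KI against WT count of 0 was 1 without WT vehicle 122 and KO vehicle 137 together (Rabl2), and 0 to 1 over single libraries. Within vehicle, KO against WT went from 0 to 1 with DESeq2 and was 0 to 1 over single libraries (1 without WT vehicle 107). Within PFOA it was 0 to 2 (0 without KO PFOA 155, 2 without KI vehicle 116). Counts of KI against KO, PFOA against vehicle and the interactions stayed at 0 in the settings run. The Ppara difference of KO from WT was 0.88 (adjusted p = 0.158) in females only and 0.76 (adjusted p = 0.057) with a coefficient per group, and 0.69 to 0.85 without single libraries, with the adjusted p over the threshold, up to 0.103, without KO PFOA 52, 154 or 155, KO vehicle 145, WT PFOA 50 or 56, or WT vehicle 107. That of KI from WT was 1.21 (adjusted p = 0.059) in females only. All these p are from edgeR.

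Signs turned for 4 of the genes nearest to Ppara, none of which passed. In KO against WT, Gm49539 gave 0.39 with sex as a term and 0.39 in females, Ttc38 -0.0063 with the numeric field and -0.022 in females. In KI against WT, Gm49539 gave 0.13 with sex, 0.13 in females and 0.00023 with a coefficient per group, and Ttc38 -0.10 in females. In KI against KO, Gm49539 gave -0.019 with upper-quartile factors, -0.25 with sex and -0.27 in females, Lncppara -0.034, -0.031 and -0.072 in the same 3 settings, Ttc38 0.036 with the numeric field, and AU022754 0.20 without WT vehicle 122 and KO vehicle 137. Over single libraries, AU022754 ran from -0.065 to 0.81 in KO against WT, -0.41 to 0.31 in KI against WT and -0.96 to 0.19 in KI against KO. Gm49539 ran from -0.19 to 0.15, -0.24 to 0.19 and -0.18 to 0.14, Ttc38 from -0.035 to 0.14 in KI against WT and -0.11 to 0.064 in KI against KO, and Lncppara from -0.061 to 0.060 in KI against KO. The cause was not tested. A filter of a total of at least 100 for every gene tested was chosen after seeing the data and kept every count within 1.5 times. No paired analysis was possible because the replicate numbers are animal numbers that no groups share. Depth limits genes such as AU022754 and Ribc2, which have a few counts a library.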

Other observations

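Relatives of the called genes that lie on other chromosomes were looked at after the values above were seen. Tef belongs to the PAR bZIP factors with Hlf and Dbp. Hlf, on chromosome 11, had 45.4 ± 10.5 CPM in WT (SD, n = 5), 25.2 ± 4.62 in KO (n = 6) and 35.3 ± 11.7 in KI libraries (n = 6), and its KO difference from WT of -0.89 on the log2 scale (SE 0.20) passed with edgeR (adjusted p = 0.022), while its KI difference of -0.40 did not (adjusted p = 0.538). Dbp, on chromosome 7, had 85.9 ± 9.56, 71.9 ± 25.7 and 93.7 ± 45.4 CPM, with a KO difference of -0.33 (adjusted p = 0.686 by edgeR). The kinases Pim1 (chromosome 17) and Pim2 (chromosome X), relatives of Pim3, gave KO differences of -0.001 (adjusted p = 0.999 by edgeR) and -0.08 (adjusted p = 0.931).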
